A study of Homo sapiens with 21 samples.

Results

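The 9 genes described here carry out and control glycogen metabolism: GYG1, GYS1, GBE1 and UGP2 for synthesis, PGM1 for both directions, PYGL and PYGB for breakdown, and PPP1R3B and PPP1R3C for control. They were picked by gene symbol, with earlier results of these data known, from the 20970 genes found in at least 1 of 4 RNA-seq tables. Each of the 9 was present in all 4. The tables hold 21 libraries of FADU, a human line from a head and neck cancer, and BFTC909 cells, a human line from a transitional cell carcinoma of the renal pelvis. The study asked how METTL4, a DNA N6-adenine methyltransferase, acts in hypoxic tumour cells.

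In each line, cells with a scrambled siRNA (Scr-si) were kept in normoxia (18% O2) or in hypoxia (1% O2) for 18 h, and cells with an siRNA to METTL4 (METTL4-si) were kept in hypoxia. The term siRNA follows the column headers. The study's methods describe METTL4 knockdown by lentiviral shRNA vectors, with stable clones selected by antibiotics. METTL4-si in normoxia was not analysed here. A separate set of FADU cells in normoxia carried plasmids as stable clones, either a control, a Flag-tagged METTL4 or the long noncoding RNA RP11-390F4.3. Each of these 9 groups had 2 libraries. A last set, FADU cells in hypoxia, had CRISPR control cells (1 library) and 2 lines grown from single cells (1 library each), in which prime editing had changed the catalytic DPPW motif of METTL4. Values are TMM-normalized CPM, that is, read counts scaled to the size of the library, and each table was normalized on its own. The RP11-390F4.3 columns were assigned by elimination, since their header names neither the gene nor a group.

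Glycogen is a branched glucose polymer that cells build when glucose is at hand and draw on when it is short. Glucose 1-phosphate, made from glucose 6-phosphate by phosphoglucomutase, is activated to UDP-glucose, and glycogenin, glycogen synthase and the branching enzyme join these units into the polymer. Glycogen phosphorylase releases glucose 1-phosphate again, and protein phosphatase 1, brought to glycogen by PPP1R3 subunits, activates the synthase and switches the phosphorylase off. Hypoxic cancer cells are known to build up glycogen, and GYS1, GBE1 and PPP1R3C are known targets of the hypoxia-inducible factors (HIFs). None of the values below measures glycogen, enzyme activity or protein.

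In the human annotation of build GRCh37, GYG1 (ENSG00000163754) spans chr3:148709195-148749562, GYS1 (ENSG00000104812) chr19:49471387-49496567, GBE1 (ENSG00000114480) chr3:81538854-81810796 and UGP2 (ENSG00000169764) chr2:64068086-64118696. PGM1 (ENSG00000079739) spans chr1:64059082-64125916, PYGL (ENSG00000100504) chr14:51324609-51411201 and PYGB (ENSG00000100994) chr20:25228721-25278648. PPP1R3C (ENSG00000119938) spans chr10:93388199-93392828, and PPP1R3B is placed below. GYG1 shares 21.8% of its exon bases with HLTF on the opposite strand, and PGM1 shares 4.83% with ITGB3BP. Also on the opposite strand, PPP1R3B shares 4.27% with ENSG00000254340, PYGL 3.96% with ENSG00000258745 and UGP2 0.398% with ACA59. Whether reads were counted by strand is not given in the sources used here, so reads of such partners cannot be told apart.

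The promoters of 4 of these genes are shown because they differ in the letters ACGTG and GCGTG, the core of the element to which HIFs bind, while all 4 genes rose in hypoxia in FADU cells. Each runs 5′ to 3′ in the direction of transcription, in a window of 300 bases that lies mostly before a RefSeq transcription start, and capitals mark ACGTG or GCGTG on either strand. In build GRCh38.p14 they lie at chr10:91633022-91633321 (PPP1R3C), chr19:48993260-48993559 (GYS1), chr3:81761596-81761895 (GBE1) and chr14:50944434-50944733 (PYGL), each on the minus strand.
PPP1R3C: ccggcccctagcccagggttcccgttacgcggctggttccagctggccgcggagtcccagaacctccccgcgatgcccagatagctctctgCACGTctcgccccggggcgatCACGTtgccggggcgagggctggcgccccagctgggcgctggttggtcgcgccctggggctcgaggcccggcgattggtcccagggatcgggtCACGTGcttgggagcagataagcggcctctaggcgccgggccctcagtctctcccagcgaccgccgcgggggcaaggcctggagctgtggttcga
GYS1: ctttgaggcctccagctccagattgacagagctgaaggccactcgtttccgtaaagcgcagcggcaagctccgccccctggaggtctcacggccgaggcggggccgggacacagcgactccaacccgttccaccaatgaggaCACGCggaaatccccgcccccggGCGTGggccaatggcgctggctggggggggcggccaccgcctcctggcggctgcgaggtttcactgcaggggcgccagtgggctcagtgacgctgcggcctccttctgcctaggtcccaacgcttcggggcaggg
GBE1: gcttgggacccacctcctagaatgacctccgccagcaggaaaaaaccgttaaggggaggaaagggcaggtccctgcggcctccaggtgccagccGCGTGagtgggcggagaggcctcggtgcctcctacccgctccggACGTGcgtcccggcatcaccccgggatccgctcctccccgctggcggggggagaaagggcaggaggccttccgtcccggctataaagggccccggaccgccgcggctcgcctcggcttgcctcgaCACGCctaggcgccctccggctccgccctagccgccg
PYGL: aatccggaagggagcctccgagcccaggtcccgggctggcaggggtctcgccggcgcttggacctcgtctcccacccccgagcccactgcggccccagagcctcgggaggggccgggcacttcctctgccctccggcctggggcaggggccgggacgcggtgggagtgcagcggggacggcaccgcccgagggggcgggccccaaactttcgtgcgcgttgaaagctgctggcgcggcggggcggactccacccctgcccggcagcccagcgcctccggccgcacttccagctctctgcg

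PPP1R3C held 4 matches, which start 159, 138, 45 and 44 bases before the start site, and the last of these are the same palindrome read on both strands. GYS1 held 2 matches, at 108 and 85 bases before the start, and GBE1 held 3, at 156 and 112 bases before the start and once after it. The PYGL window held none. In all, 8 of the 9 genes had promoters in the RefSeq set, PPP1R3B being the exception, and 8 of their 11 promoters, in 7 of the genes, held a match. The genes with a match that are not shown were GYG1, UGP2, PGM1 and PYGB. PGM1 held 3 in 1 of its promoters and none in the others. GYG1, which fell with hypoxia in both lines, held 3, those at 43 and 42 bases before the start being 1 palindrome read on both strands. PYGB held 3 and the promoters of UGP2 held 2 and 1, and neither gene was called with hypoxia. Such letters are common: 48.4% of 35116 promoters of the same length held at least 1 of them, 21.4% held ACGTG and 36.5% held GCGTG. A match is a description of the sequence and not a measured binding site.

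Between 19.0 and 25.4 M reads lay on genes in each library of the 3 larger tables, and between 17.8 and 20.1 M in the 3 mutant-set libraries. In FADU cells, METTL4 itself was at 26.6 and 25.3 CPM with Scr-si in hypoxia and at 24.2 and 27.1 CPM in the libraries labelled METTL4-si. These overlap, so the RNA gives no sign of the knockdown in FADU, and directions below are for libraries labelled METTL4-si. In BFTC909 cells, METTL4 was at 19.0 and 15.6 CPM with Scr-si in hypoxia and at 14.4 and 12.2 CPM in the libraries labelled METTL4-si, a log2 difference of -0.36 with an adjusted p of 0.072 by limma. Squamous and basal epithelial markers were all present in FADU, where 6 of 6 had a value of at least 1 in every library. Their sum differed with the conditions: it was 3374 and 3135 CPM in normoxia, 2827 and 3125 CPM in hypoxia and 1798 and 2018 CPM in the libraries labelled METTL4-si. It was 3273 and 3176 CPM in the overexpression control, 2577 and 2504 CPM in METTL4 cells and 2508 and 2324 CPM with RP11-390F4.3, and in the mutant set 2094 CPM in the control against 1420 and 1826 CPM in the clones. In BFTC909 1 of these 6 was in the table, at 1.08 CPM or less, and 5 of 6 fibroblast markers were. The fibroblast sum was 1013 and 1106 CPM in normoxia, 4438 and 4643 CPM in hypoxia and 2479 and 2678 CPM with METTL4-si, and was thus highest with Scr-si in hypoxia, as GYS1, GBE1, PGM1 and PPP1R3C were. Its highest single gene was at 805 and 882, 3595 and 3755, and 1939 and 2003 CPM in the same order. A single gene gave most of this sum and of the squamous sums in FADU, so they do not speak for a whole list of markers. The part of these marker differences in the results below was not tested.

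Of 21 libraries, 4 stood apart, 3 of them in the knockdown tables. Luminal breast markers, 5 of 6 of which were in the FADU table, summed to 97.7 CPM in normoxia replicate 1 and to 496 CPM in METTL4-si replicate 1, but to between 5.63 and 10.7 CPM in the other 4 libraries. Fibroblast markers, 2 of 6 in that table, summed to 25.6 and 116 CPM in the same libraries and to at most 5.87 CPM in the others. The higher gene alone was at 20.3 and 109 CPM in those libraries. In BFTC909 the only listed luminal breast marker in the table, GATA3, was at 128 CPM in METTL4-si replicate 2 and at most 0.964 CPM elsewhere. A single gene thus set this library apart, and it does not by itself tell the kind of cell. In the overexpression table the 3 luminal breast markers present summed to 24.6 CPM in RP11-390F4.3 replicate 2 and to between 5.42 and 7.68 CPM in the other 5 libraries; without it the same number of members, 7, was called with RP11-390F4.3. In bulk RNA, fewer cells of a kind and less RNA per cell cannot be told apart. Results without the 3 libraries of the knockdown tables are given beside those they change.

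Following the study's own threshold, a gene was called when its groups differed by at least 1.3-fold and its unadjusted p was below 0.05 in limma fits over all genes of a table on log2(value + 1). Fold changes are ratios of group means in CPM, log2 values are on the log2(value + 1) scale with their standard error (SE), and adjusted p-values are Benjamini-Hochberg values from limma. Nothing in the labels says that the 2 libraries of a group came from separate cultures, so the p-values measure the spread between libraries, which may be technical. The libraries of each group of 2 in the larger tables differed by more than counting error, with chi-square per degree of freedom between 2.11 and 28.9.

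With hypoxia the synthase GYS1, the branching enzyme GBE1, PGM1 and both phosphatase subunits among the 9 rose in both lines. The glycogenin GYG1 fell in both, while the phosphorylase PYGL rose in FADU. In FADU 6 of the 9 genes rose (PPP1R3C, GBE1, PYGL, PPP1R3B, GYS1 and PGM1) and GYG1 fell, where 12.4% of 16324 tested genes were called higher and 12.5% lower. In BFTC909 5 genes rose (PPP1R3C, GBE1, GYS1, PGM1 and PPP1R3B) and GYG1 fell, where 19.5% of 14869 tested genes were called higher and 19.2% lower. The same genes were called with an adjusted p under 0.05. The median log2 change of the 9 genes was 0.83 in FADU and 0.66 in BFTC909, against -0.03 and -0.02 for all tested genes.

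In the libraries labelled METTL4-si, against Scr-si in the same hypoxia, the genes raised by hypoxia were mostly lower. In FADU 1 of the 9 genes was called higher and 7 lower, where 15.2% of all tested genes were called higher and 16.8% lower. In BFTC909 2 were called higher and 4 lower, where 15.7% were called higher and 12.9% lower. The medians of the 9 log2 differences were -1.04 and -0.37, against 0.02 and 0.01 for all tested genes, and the same genes passed with adjusted p-values. Without the 3 marked libraries of the knockdown tables, PYGB in FADU was the only member in these comparisons whose call changed. These comparisons share the 2 Scr-si hypoxia libraries of their line, so their changes are not independent of each other.

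**Figure D1:**
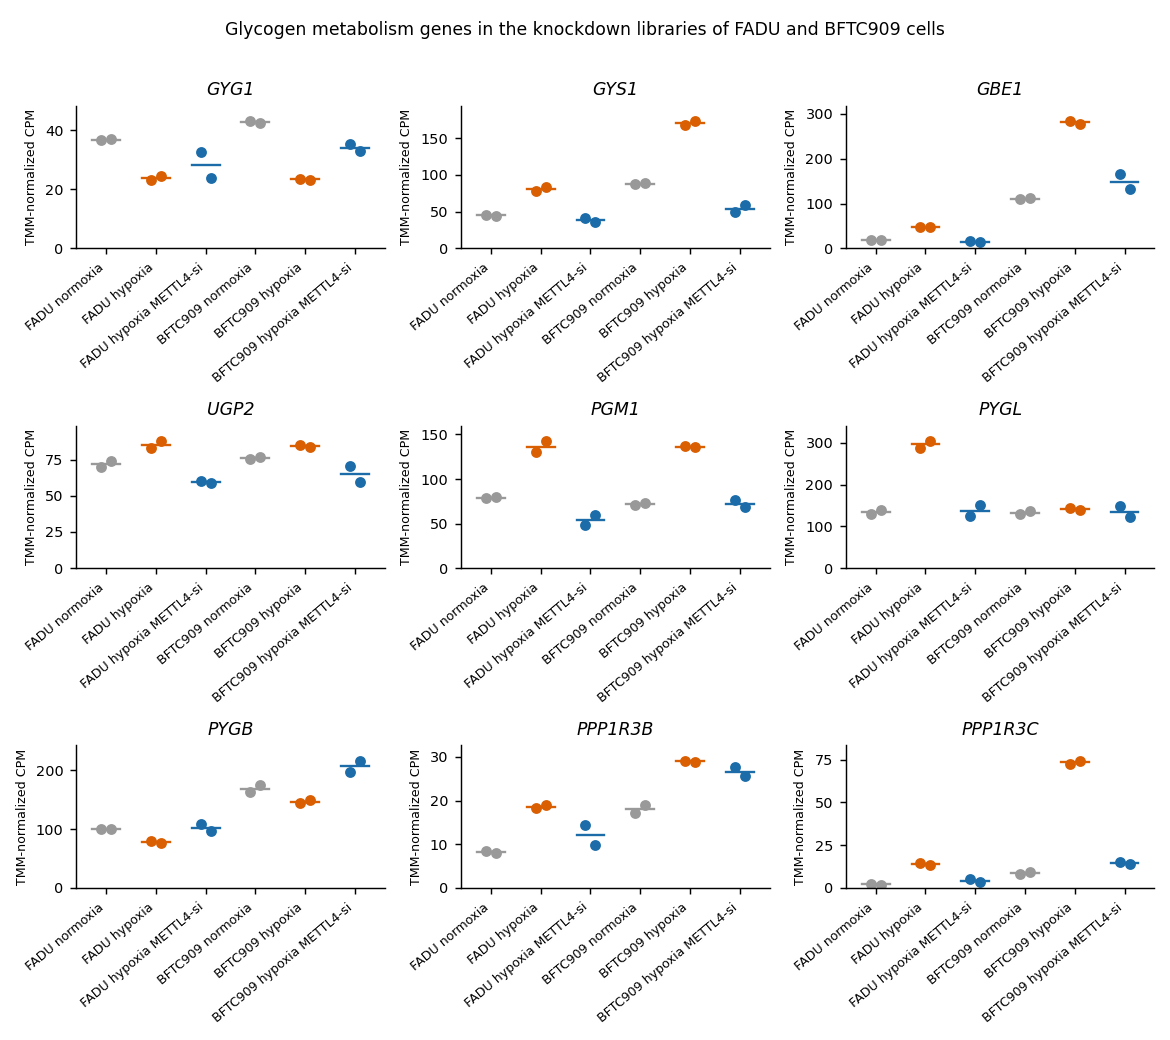
Level of each gene (TMM-normalized CPM, linear axis from 0) in each library of the FADU and BFTC909 knockdown tables; points are libraries and bars are means of 2. GYS1, GBE1, PGM1 and PPP1R3C are highest with Scr-si in hypoxia in both lines, and PYGL reaches 287 and 305 in hypoxic FADU cells.

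GYS1, the glycogen synthase of tissues other than liver, was at 45.7 and 44.3 CPM in normoxic FADU cells, 77.8 and 83.6 CPM in hypoxia, and 41.9 and 35.6 CPM in hypoxia with METTL4-si. The hypoxic Scr-si libraries did not overlap with either other group. It rose 1.79-fold with hypoxia (log2 0.83, SE 0.09, adjusted p = 0.0023) and was 2.08-fold lower in the libraries labelled METTL4-si (log2 -1.04, SE 0.09, adjusted p = 0.00065). In BFTC909 cells GYS1 was at 86.9 and 88.4 CPM in normoxia, 168 and 173 CPM in hypoxia, and 49.4 and 58.3 CPM with METTL4-si. Here the METTL4-si libraries lay below the normoxic ones. The rise was 1.95-fold (log2 0.95, SE 0.09, adjusted p = 0.00021) and the difference under METTL4-si 3.17-fold (log2 -1.65, SE 0.09, adjusted p = 3.6e-05).

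GBE1, the branching enzyme that joins side chains to the growing polymer, was at 19.1 and 19.0 CPM in normoxic FADU cells, 48.1 and 47.5 CPM in hypoxia, and 15.6 and 14.2 CPM with METTL4-si. Hypoxia raised it 2.51-fold (log2 1.28, SE 0.08, adjusted p = 0.00038), and it was 3.21-fold lower with METTL4-si (log2 -1.62, SE 0.08, adjusted p = 0.00014). In BFTC909 cells it was at 109 and 113 CPM in normoxia, 284 and 279 CPM in hypoxia, and 165 and 131 CPM with METTL4-si. The last group stayed above normoxia. The rise was 2.54-fold (log2 1.34, SE 0.10, adjusted p = 0.00011), and the difference under METTL4-si 1.90-fold (log2 -0.93, SE 0.10, adjusted p = 0.00081).

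GYG1, glycogenin, which primes a new glycogen particle by adding the first glucose units to itself, went the other way. It was at 36.5 and 37.1 CPM in normoxic FADU cells, 23.0 and 24.5 CPM in hypoxia, and 32.5 and 23.9 CPM with METTL4-si. The fall with hypoxia was 1.55-fold (log2 -0.61, SE 0.14, adjusted p = 0.024). The METTL4-si libraries overlapped with the hypoxic controls (log2 0.22, SE 0.14, adjusted p = 0.26), and the higher of them was the one with breast and fibroblast markers. Without METTL4-si replicate 2 the log2 difference was 0.44 and was called, and without the marked libraries it was 0.0065. In BFTC909 cells GYG1 was at 43.1 and 42.5 CPM in normoxia, 23.6 and 23.2 CPM in hypoxia, and 35.3 and 32.8 CPM with METTL4-si. It fell 1.83-fold with hypoxia (log2 -0.84, SE 0.08, adjusted p = 0.00021) and was 1.46-fold higher with METTL4-si (log2 0.52, SE 0.08, adjusted p = 0.0026). HLTF, whose exons share bases with those of GYG1, was not analysed here.

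UGP2, which makes UDP-glucose for glycogen and for glycoproteins alike, changed little with hypoxia. In FADU cells it was at 70.1 and 73.8 CPM in normoxia, 82.7 and 87.9 CPM in hypoxia, and 60.3 and 59.0 CPM with METTL4-si. The difference with hypoxia was 1.19-fold, under the threshold (log2 0.24, SE 0.07, adjusted p = 0.044), whereas the level with METTL4-si was 1.43-fold lower (log2 -0.51, SE 0.07, adjusted p = 0.0024). In BFTC909 cells it was at 75.3 and 76.7 CPM in normoxia, 84.8 and 83.6 CPM in hypoxia, and 70.5 and 59.6 CPM with METTL4-si. Neither comparison passed both criteria there, with log2 differences of 0.15 (SE 0.09, adjusted p = 0.21) for hypoxia and -0.37 (SE 0.09, adjusted p = 0.017) for METTL4-si. The latter, just under 1.3-fold, was called with edgeR (log2 -0.38) and DESeq2 (log2 -0.39) on whole reads and with median-centred libraries (log2 -0.47). It was also called without METTL4-si replicate 1 (log2 -0.49) and without Scr-si hypoxia replicate 2 (log2 -0.38). Without METTL4-si replicate 2, which carries GATA3, it was -0.25.

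PGM1, the phosphoglucomutase that links glucose 6-phosphate and glucose 1-phosphate and so serves synthesis and breakdown, was highest with Scr-si in hypoxia, as GYS1 was. It was at 78.5 and 79.6 CPM in normoxic FADU cells, 130 and 143 CPM in hypoxia, and 48.2 and 59.8 CPM with METTL4-si. The rise was 1.72-fold (log2 0.78, SE 0.11, adjusted p = 0.0046) and the difference under METTL4-si 2.53-fold (log2 -1.33, SE 0.11, adjusted p = 0.00049). In BFTC909 cells it was at 70.5 and 72.9 CPM in normoxia, 137 and 136 CPM in hypoxia, and 76.4 and 68.1 CPM with METTL4-si. The rise was 1.90-fold (log2 0.92, SE 0.07, adjusted p = 0.00013) and the difference under METTL4-si 1.89-fold (log2 -0.91, SE 0.07, adjusted p = 0.00022).

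PYGL, the phosphorylase known from liver, was called in FADU and not in BFTC909. In FADU cells it was at 130 and 139 CPM in normoxia, 287 and 305 CPM in hypoxia, and 124 and 151 CPM with METTL4-si. It rose 2.20-fold with hypoxia (log2 1.13, SE 0.10, adjusted p = 0.0010), and was 2.15-fold lower with METTL4-si (log2 -1.10, SE 0.10, adjusted p = 0.00071). In BFTC909 cells it was at 129 and 136 CPM in normoxia, 144 and 140 CPM in hypoxia, and 149 and 121 CPM with METTL4-si. There the log2 difference with hypoxia was 0.10, with a 95% confidence interval of -0.13 to 0.33, against 0.89 to 1.38 in FADU. That with METTL4-si was -0.07, with an interval of -0.31 to 0.16, against -1.35 to -0.86 in FADU, and was 0.07 without METTL4-si replicate 2. The tables were normalized separately, and the difference between the lines was not tested.

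PYGB, the phosphorylase known from brain, was lowest with Scr-si in hypoxia. In FADU cells it was at 101 and 100 CPM in normoxia, 79.9 and 77.0 CPM in hypoxia, and 108 and 97.1 CPM with METTL4-si. The difference with hypoxia was 1.28-fold, just under the threshold (log2 -0.35, SE 0.07, adjusted p = 0.017), and was called without Scr-si hypoxia replicate 1 (log2 -0.38). With METTL4-si it was 1.31-fold higher (log2 0.38, SE 0.07, adjusted p = 0.0089). This call was lost without METTL4-si replicate 1, which carries the markers (log2 0.30), and without Scr-si hypoxia replicate 2 (log2 0.35). It was also lost with edgeR on whole reads (log2 0.37) and with a pseudocount of 5 (log2 0.36). In BFTC909 cells PYGB was at 162 and 175 CPM in normoxia, 144 and 150 CPM in hypoxia, and 197 and 216 CPM with METTL4-si. The hypoxic libraries were again the lowest but the difference was not called (log2 -0.20, SE 0.07, adjusted p = 0.062), and PYGB rose 1.41-fold with METTL4-si (log2 0.49, SE 0.07, adjusted p = 0.0028).

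PPP1R3C, a phosphatase 1 subunit also called PTG that tethers the phosphatase to glycogen and its enzymes, had the largest rise of the 9 genes in both lines. It was at 2.16 and 2.01 CPM in normoxic FADU cells, 14.4 and 13.7 CPM in hypoxia, and 5.50 and 3.20 CPM with METTL4-si. The rise was 6.74-fold (log2 2.29, SE 0.21, adjusted p = 0.0011), and the level with METTL4-si was 3.23-fold lower (log2 -1.53, SE 0.21, adjusted p = 0.0025). In BFTC909 cells it was at 8.32 and 9.10 CPM in normoxia, 72.4 and 74.5 CPM in hypoxia, and 15.1 and 14.0 CPM with METTL4-si. The rise was 8.43-fold (log2 2.94, SE 0.09, adjusted p = 6.3e-06) and the difference under METTL4-si 5.05-fold (log2 -2.26, SE 0.09, adjusted p = 2.1e-05).

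PPP1R3B (ENSG00000173281, chr8:8993765-9009084 in GRCh37), the subunit of this family best known from liver, was at 8.48 and 7.95 CPM in normoxic FADU cells, 18.3 and 18.9 CPM in hypoxia, and 14.5 and 9.92 CPM with METTL4-si. It rose 2.27-fold with hypoxia (log2 1.09, SE 0.17, adjusted p = 0.0063) and was 1.53-fold lower with METTL4-si (log2 -0.59, SE 0.17, adjusted p = 0.034). The latter call was lost without METTL4-si replicate 2 (log2 -0.34) or Scr-si hypoxia replicate 2 (log2 -0.57), and without the marked libraries the log2 difference was -0.84. In BFTC909 cells PPP1R3B was at 17.1 and 18.9 CPM in normoxia, 29.1 and 28.8 CPM in hypoxia, and 27.7 and 25.5 CPM with METTL4-si. It rose 1.61-fold with hypoxia (log2 0.66, SE 0.09, adjusted p = 0.0012), and the difference under METTL4-si was small and not called (log2 -0.12, 95% confidence interval -0.33 to 0.09).

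**Figure D2:**
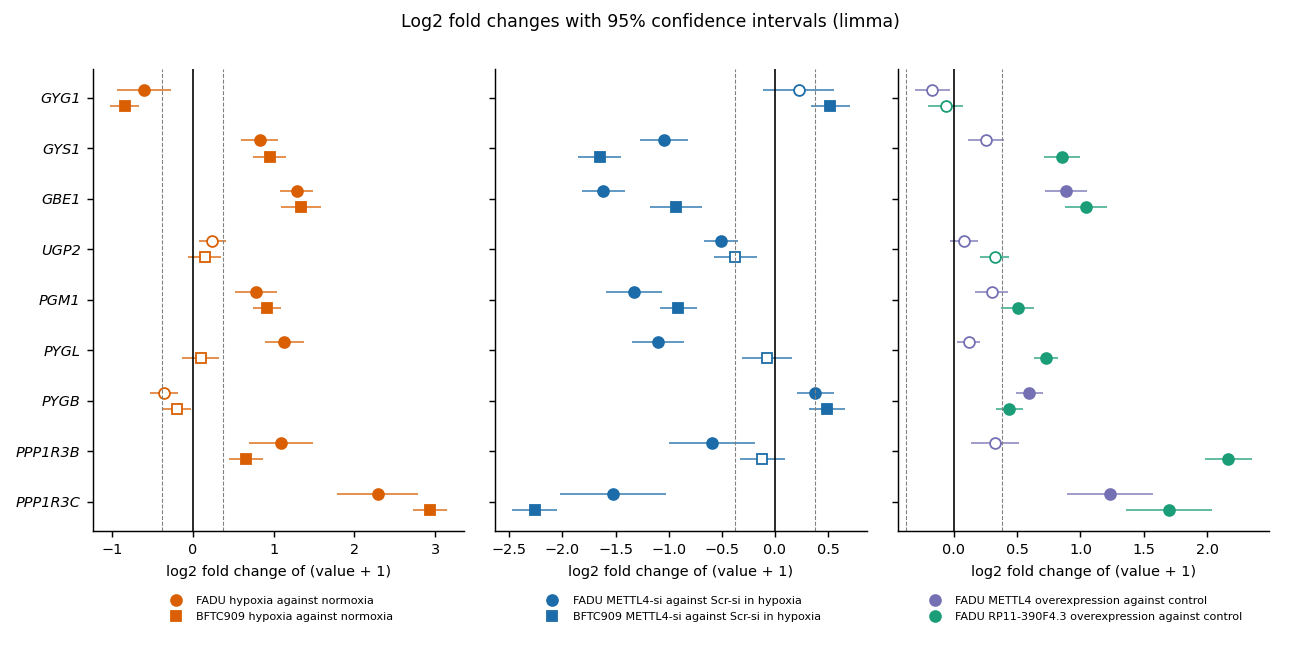
Log2 fold changes of (value + 1) with 95% confidence intervals from limma, for hypoxia against normoxia (left), METTL4-si against Scr-si in hypoxia (middle) and overexpression against control in FADU (right); filled symbols were called and dashed lines mark 1.3-fold. PPP1R3C has the largest rise with hypoxia, 2.29 in FADU and 2.94 in BFTC909, and GYG1 lies below 0 in both.

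Set directly against normoxia, the libraries labelled METTL4-si in hypoxia came out mixed. In FADU 2 genes were called higher and 2 lower of 9, where 27.3% of all tested genes were called in either direction. PPP1R3C was 2.09-fold above normoxia (log2 0.76, SE 0.21, adjusted p = 0.037) and PGM1 1.46-fold below it (log2 -0.55, SE 0.11, adjusted p = 0.013). PPP1R3B (log2 0.50, SE 0.17, adjusted p = 0.069) and GYG1 (log2 -0.39, SE 0.14, adjusted p = 0.083) did not pass the adjusted test. The call of each was lost without either normoxia replicate. Without METTL4-si replicate 1 PPP1R3B was at 0.25, and without METTL4-si replicate 2 GYG1 was at -0.17. GYG1 also lost its call with edgeR (log2 -0.37) and DESeq2 (log2 -0.36) on whole reads. GBE1, not called with all libraries, was called lower without METTL4-si replicate 1 (log2 -0.40). PYGL (log2 0.03, 95% confidence interval -0.22 to 0.27) and PYGB (log2 0.03, interval -0.15 to 0.20) lay near their normoxic levels.

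In BFTC909 3 genes were called higher and 1 lower than in normoxia, where 49.3% of all tested genes were called in either direction. PPP1R3C (log2 0.68, SE 0.09, adjusted p = 0.00067), PPP1R3B (log2 0.54, SE 0.09, adjusted p = 0.0019) and GBE1 (log2 0.41, SE 0.10, adjusted p = 0.012) were above normoxia. GBE1 lost its call without METTL4-si replicate 1 (log2 0.24). GYS1 was 1.63-fold below normoxia (log2 -0.70, SE 0.09, adjusted p = 0.00050), whereas in FADU its log2 difference was -0.22 (SE 0.09, adjusted p = 0.13).

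Levels of different genes are set side by side here per kilobase of exon, as means of 2 libraries. In normoxic FADU cells the order was PYGL (29.6 CPM per kb), PYGB (22.6), PGM1 (19.4), GYS1 (10.6), UGP2 (10.6), GYG1 (4.88), GBE1 (4.09), PPP1R3B (1.43) and PPP1R3C (0.821), and the libraries of GYS1 and UGP2 overlapped. In hypoxia PYGL (65.1), PGM1 (33.5) and GYS1 (19.0) led, GYS1 had passed PYGB (17.6), and GYG1 (3.15) was last, not apart from PPP1R3B (3.24). In the METTL4-si libraries PYGL (30.3), PYGB (23.0) and PGM1 (13.2) led again.

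In normoxic BFTC909 cells the phosphorylases also led, with PYGB (37.8 CPM per kb) above PYGL (29.1), followed by GBE1 (23.8), GYS1 (20.7) and PGM1 (17.6). In hypoxia this order turned over: GBE1 (60.5) and GYS1 (40.2) led, PGM1 (33.5) and PYGB (32.9) overlapped, and PYGL (31.2) and PPP1R3C (28.9) came next. PPP1R3C thus went from 3.43 in normoxia, where it overlapped with PPP1R3B (3.13), to a level near that of the phosphorylases. GYG1 was last in hypoxia (3.10). With METTL4-si PYGB (46.4) led, GBE1 (31.9) and PYGL (29.7) overlapped, and GYS1 (12.7) came after PGM1 (17.7).

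Synthesis against breakdown was described within each library as the level of GYS1 over the sum of PYGL and PYGB, each per kilobase; this is a ratio of transcripts, with no test. In FADU it was 0.210 and 0.197 in normoxia, 0.226 and 0.234 in hypoxia, and 0.192 and 0.152 with METTL4-si. Synthase and PYGL rose together there, and the ratio in hypoxia was 1.13 times that in normoxia. In BFTC909 it was 0.316 and 0.302 in normoxia, 0.620 and 0.635 in hypoxia, and 0.151 and 0.183 with METTL4-si. The hypoxic ratio was 2.03 times the normoxic one and 3.77 times that with METTL4-si, and the groups did not overlap. The makeup of the phosphorylases moved in FADU, where PYGL over PYGB was 1.27 and 1.36 in normoxia, 3.52 and 3.87 in hypoxia, and 1.13 and 1.53 with METTL4-si. In BFTC909 it stayed under 1, at 0.782 and 0.760, 0.980 and 0.915, and 0.741 and 0.550 in the same order.

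**Figure D3:**
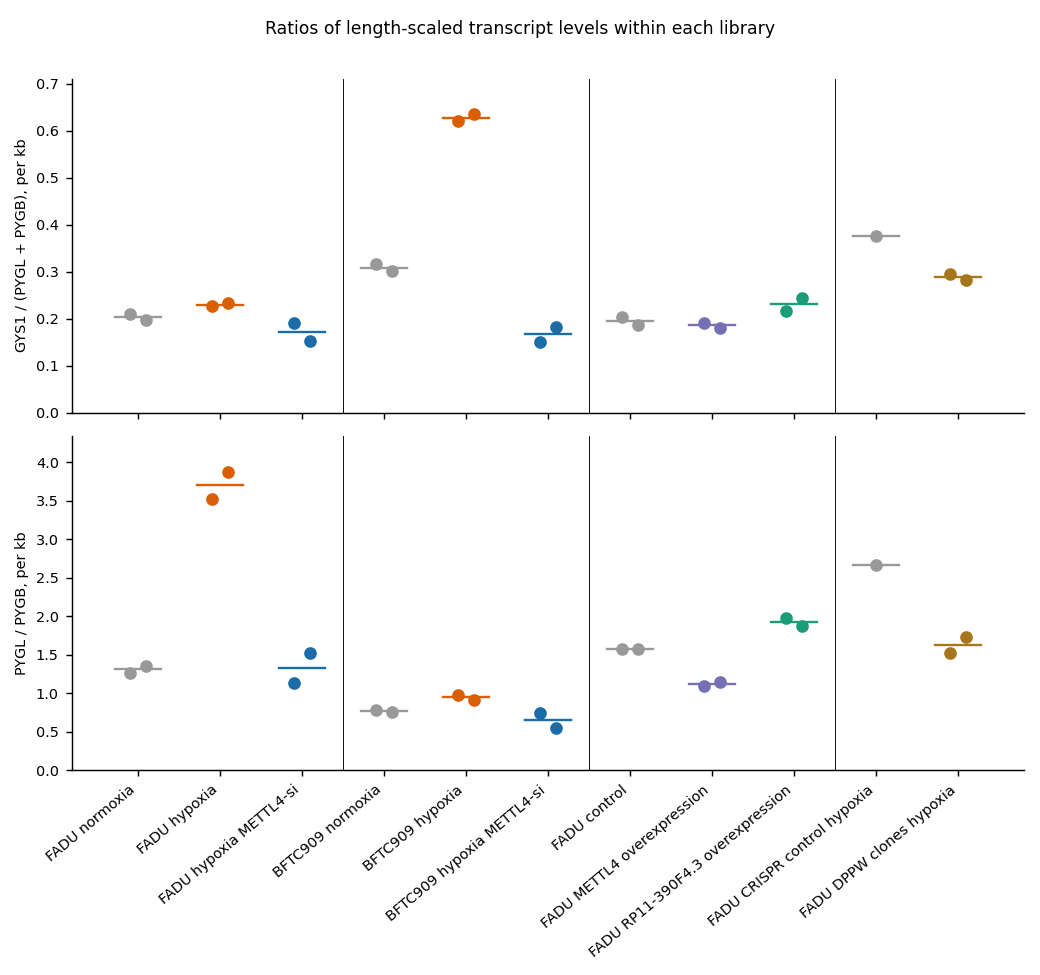
Ratio of GYS1 to the sum of PYGL and PYGB (top) and of PYGL to PYGB (bottom), from levels per kilobase, in each library of all tables; points are libraries, bars are means, and vertical lines part the tables, which were normalized separately. The synthase ratio is highest in hypoxic BFTC909 cells, at 0.620 and 0.635, and PYGL over PYGB is highest in hypoxic FADU cells, at 3.52 and 3.87.

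In FADU cells in normoxia that overexpressed METTL4, the METTL4 RNA was at 158 and 139 CPM against 35.4 and 32.7 CPM in control cells, a 4.34-fold rise. Of the 9 genes 3 rose (PPP1R3C, GBE1 and PYGB) and none was called lower, where 8.3% of 15644 tested genes were called higher and 11.1% lower. PPP1R3C was at 2.10 and 1.16 CPM in control and at 5.12 and 5.08 CPM in METTL4 cells (3.13-fold, log2 1.24, SE 0.16, adjusted p = 3.3e-05). GBE1 was at 17.5 and 19.7 CPM in control and at 33.5 and 36.98 CPM in METTL4 cells (1.89-fold, log2 0.89, SE 0.08, adjusted p = 9.5e-07). PYGB was at 82.1 and 85.3 CPM in control and at 130 and 124 CPM in METTL4 cells (1.52-fold, log2 0.60, SE 0.05, adjusted p = 4.0e-07). GYS1 was at 40.9 and 38.9 CPM in control and at 49.8 and 46.0 CPM in METTL4 cells, apart from each other but under the fold threshold (log2 0.26, SE 0.07, adjusted p = 0.0070). PYGL at 132 and 137 against 146 and 146 CPM also stayed under it (log2 0.12). PGM1 (log2 0.30) and PPP1R3B (log2 0.33) were called only when 1 control library was left out, replicate 2 for PGM1 (0.39) and replicate 1 for PPP1R3B (0.38).

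In the cells with RP11-390F4.3, METTL4 was at 30.0 and 28.9 CPM, and 7 of the 9 genes were called higher and none lower, where 16.8% of all tested genes were called higher and 12.8% lower. Both overexpression comparisons share the 2 control libraries. PPP1R3B was at 8.06 and 7.40 CPM in control and at 37.6 and 38.6 CPM with RP11-390F4.3 (4.93-fold, log2 2.17, SE 0.09, adjusted p = 2.2e-10), while METTL4 cells had 10.2 and 9.65 CPM. PPP1R3C was at 7.53 and 7.24 CPM (4.53-fold, log2 1.70, SE 0.16, adjusted p = 1.1e-06). GBE1 was at 41.1 and 37.8 CPM (2.12-fold, log2 1.04, SE 0.08, adjusted p = 1.3e-07). These are a regulator known from liver, the tether PTG and the branching enzyme.

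GYS1 was at 68.9 and 77.2 CPM with RP11-390F4.3 (1.83-fold, log2 0.85, SE 0.07, adjusted p = 1.8e-07). PYGL was at 225 and 221 CPM (1.66-fold, log2 0.73, SE 0.04). PGM1, at 116 and 114 CPM against 75.7 and 86.1 CPM, was 1.42-fold higher (log2 0.50, SE 0.06), and PYGB, at 112 and 116 CPM, was 1.36-fold higher (log2 0.44, SE 0.05). The remaining genes, UGP2 at 101 and 104 against 78.7 and 85.0 CPM (log2 0.32) and GYG1 at 38.1 and 36.2 against 37.2 and 40.5 CPM (log2 -0.06), were not called. Genes of synthesis and of breakdown thus rose together, and GYS1 over the phosphorylases was 0.204 and 0.186 in control, 0.192 and 0.181 in METTL4 cells, and 0.217 and 0.244 with RP11-390F4.3. PYGL over PYGB was 1.57 and 1.58 in control, 1.10 and 1.15 in METTL4 cells, and 1.97 and 1.87 with RP11-390F4.3.

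In the hypoxic mutant set there was 1 control library, so differences have no replicate check and no p-value. METTL4 RNA was at 12.5 CPM in the CRISPR control, 15.9 CPM in clone 1 and 10.6 CPM in clone 2, which says nothing about an edit of its codons. Of the 9 genes 1 was higher by 1.3-fold or more in both clones and none lower, where 8.94% of 15719 genes were higher in that way and 11.8% lower. That gene was PYGB, at 40.3 CPM in the control, 72.6 CPM in clone 1 and 62.9 CPM in clone 2 (log2 ratios 0.84 and 0.63). Other members lay close to the control: GBE1 was at 27.2, 26.3 and 27.3 CPM, PGM1 at 88.5, 85.4 and 82.5 CPM, and PYGL at 110, 113 and 111 CPM. GYS1 was at 52.8, 51.6 and 46.1 CPM, and PPP1R3C at 7.25, 8.08 and 9.47 CPM.

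UGP2 was at 50.1, 61.4 and 57.4 CPM in control, clone 1 and clone 2. GYG1 was at 13.1, 9.68 and 10.7 CPM and PPP1R3B at 17.0, 9.77 and 14.9 CPM, so that both were lower in the clones but passed 1.3-fold in clone 1 alone (log2 ratios -0.40 and -0.74) and not in clone 2 (-0.27 and -0.17). The median over the 9 genes of the mean log2 ratio was -0.02, against -0.0040 for all genes. With PYGB higher, GYS1 over the phosphorylases was 0.376 in the control, 0.296 in clone 1 and 0.282 in clone 2, and PYGL over PYGB was 2.67, 1.52 and 1.73 in the same order.

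**Figure D4:**
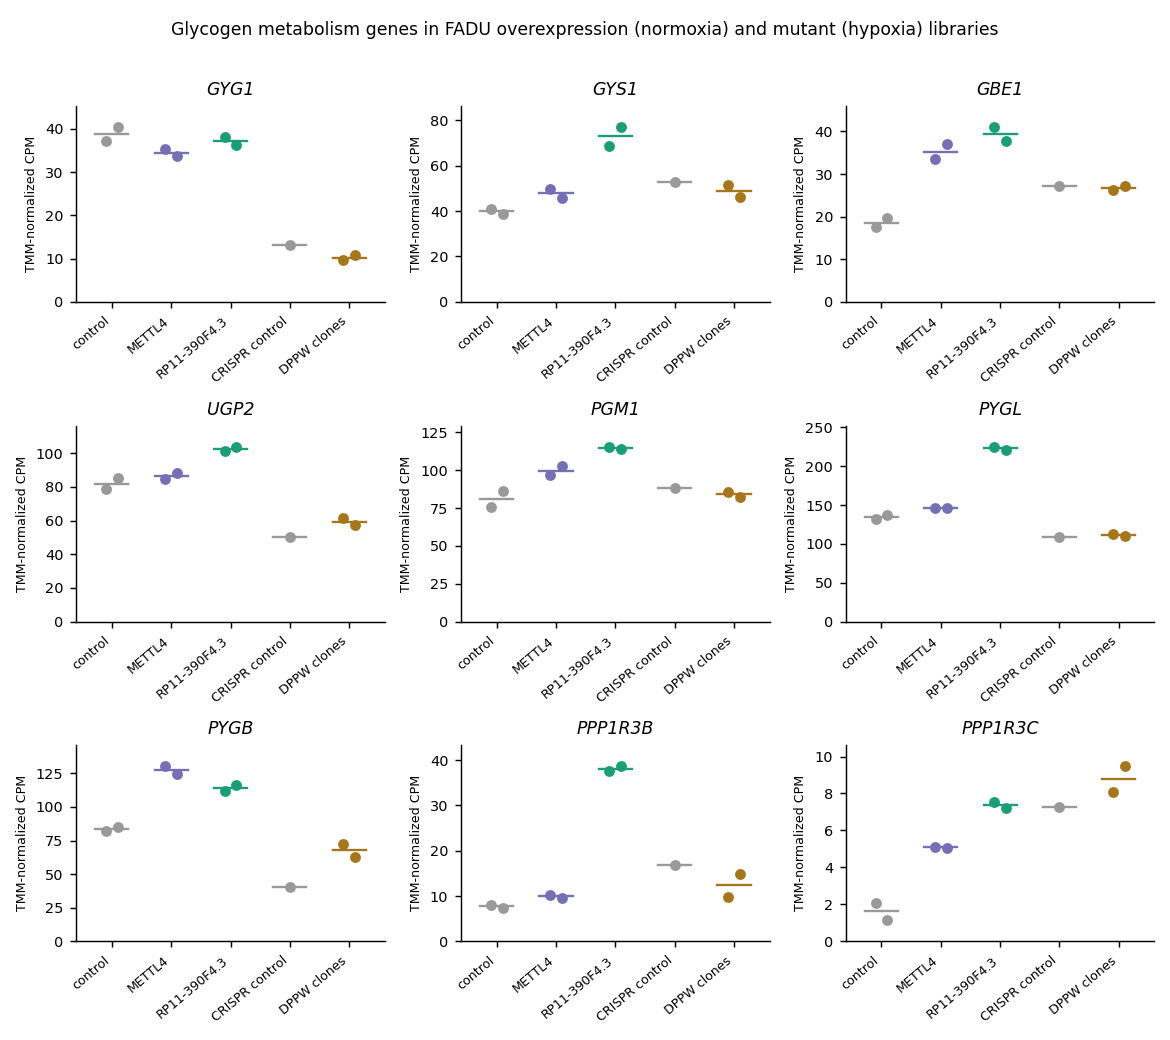
Level of each gene (TMM-normalized CPM, linear axis from 0) in FADU cells in normoxia with a control plasmid, METTL4 or RP11-390F4.3, and in hypoxic FADU CRISPR control cells and METTL4-DPPW clones; points are libraries and bars are means. PPP1R3B stands at 37.6 and 38.6 with RP11-390F4.3, above the control and METTL4 libraries, and PYGB is higher in both clones than in their control. CPM of the mutant set are on another scale.

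Another 25 genes of glycogen metabolism were listed for comparison: 22 were tested in FADU, 20 in BFTC909 and 21 in the overexpression table. With hypoxia 3 were called higher and 1 lower in FADU, and 6 higher and 2 lower in BFTC909. Over all tested genes, 12.4% were called higher and 12.5% lower in FADU, and 19.5% higher and 19.2% lower in BFTC909. PPP1R3G and PPP1R3E, further glycogen-targeting subunits of phosphatase 1, were called higher in both lines. PPP1R3G was at 1.29 and 1.25 CPM in normoxic FADU cells, 5.75 and 8.35 CPM in hypoxia and 1.28 and 1.20 CPM with METTL4-si. In BFTC909 cells it was at 3.89 and 3.44, 13.6 and 14.9, and 5.11 and 5.08 CPM in the same order. Its log2 change with hypoxia was 1.81 (SE 0.18, adjusted p = 0.0014) in FADU and 1.71 (SE 0.12, adjusted p = 6.6e-05) in BFTC909. PPP1R3E rose by log2 0.85 (SE 0.11, adjusted p = 0.0031) and 1.09 (SE 0.10, adjusted p = 0.00023). The liver synthase GYS2, the muscle subunit PPP1R3A and the glycogen-binding STBD1 were not analysed here.

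With METTL4-si 5 of the 22 were called higher and 8 lower in FADU, and 4 higher and 3 lower of 20 in BFTC909. The shares over all tested genes were 15.2% higher and 16.8% lower in FADU, and 15.7% higher and 12.9% lower in BFTC909. PPP1R3G (log2 -1.83 and -1.32), PPP1R3E (log2 -0.42 and -0.77) and the phosphoglucomutase PGM2 (log2 -1.03 and -0.85) were lower in FADU and BFTC909. PGM2 had risen with hypoxia in FADU (log2 0.70, adjusted p = 0.0033). Higher in both lines were PPP1R3D, another targeting subunit (log2 0.77 and 0.63), and GAA, the acid glucosidase that breaks glycogen down in lysosomes (log2 0.55 with an adjusted p of 0.088 in FADU, and 1.05 with 0.039 in BFTC909). For GAA the highest libraries were the marked ones, at 52.2 CPM against 33.8 CPM in FADU and at 29.1 CPM against 12.9 CPM in BFTC909, and PPP1R3D was likewise at 20.3 against 11.7 CPM and at 16.3 against 13.2 CPM. Without these libraries GAA was at log2 0.24 in FADU, no longer called, and at 0.49 in BFTC909, and PPP1R3D at 0.39 and 0.49, called in both. What part, if any, other cells had in these differences was not tested. PPP1R3F was called lower with hypoxia (log2 -0.40, adjusted p = 0.13) and higher with METTL4-si (log2 0.41, adjusted p = 0.10) in FADU, neither by adjusted p, and neither was called without the marked library of the comparison (log2 -0.34 and 0.29).

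Against normoxia, 4 of these genes were called higher and 4 lower with METTL4-si in FADU, and 9 higher and 3 lower in BFTC909. Of all tested genes, 27.3% were called in either direction in FADU and 49.3% in BFTC909. In both lines GAA (log2 0.72 in FADU and 1.71 in BFTC909) and GYG2, the second glycogenin (log2 0.73, adjusted p = 0.082, and 0.84, adjusted p = 0.0085), were higher, and the catalytic subunit PPP1CC was lower (log2 -0.87 and -0.78). GYG2 was at 0.623 and 0.536 CPM in normoxic FADU cells and at 2.47 and 0.979 CPM with METTL4-si, and in BFTC909 cells at 1.21 and 0.965 against 2.25 and 3.27 CPM, so the marked library was the highest in both lines. Without it the fold of GYG2 went from 2.98 to 1.69 in FADU, where the call was lost (log2 0.33), as it also was without normoxia replicate 1 (log2 0.77), and from 2.54 to 2.07 in BFTC909 (log2 0.64). GAA without it was at log2 0.41 in FADU and 1.15 in BFTC909, where its fold went from 3.99 to 2.45. With METTL4 overexpression PPP1R3G (log2 0.82) and PPP1CB, another catalytic subunit (log2 0.45), were higher, and GAA (log2 -0.68) was lower. With RP11-390F4.3 5 were higher, PPP1R3G (log2 2.01), GAA (log2 0.65), GYG2 (log2 0.44), PPP1CB (log2 0.39) and PGM2 (log2 0.38), and PPP1R3F was lower (log2 -0.45). Of all genes tested there, 16.8% were called higher and 12.8% lower. The call of GYG2 was lost without RP11-390F4.3 replicate 2, the marked library (log2 0.42). In the mutant set 22 were present and 3 were higher by 1.3-fold in both clones, namely EPM2A (mean log2 ratio 0.85), PPP1R3E (0.69) and PPP1CB (0.51), named after their values were seen, and none was lower. Of all genes of that set, 8.94% were higher in that way and 11.8% lower.

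Over the 12 knockdown libraries, with each line centred on its own mean, the genes whose log2 levels ran most like GYS1 among 9822 were UBE2O (Pearson r = 0.988), TENT4A (0.978), RASSF1 (0.974), NDST1 (0.969) and MAPK7 (0.968). For PYGL they were STARD4 (r = 0.982), FRYL (0.981), SRI (0.981), COG3 (0.974) and RASAL2 (0.974). These libraries share 3 conditions and 2 lines, so the values only describe a shared pattern and carry no test. Among the members themselves PGM1 (r = 0.859), UGP2 (0.840), PPP1R3C (0.810) and GBE1 (0.800) ran with GYS1. They held ranks 107, 155, 217 and 241, so many genes outside the list ran closer to it. PYGL (0.546) and PPP1R3B (0.476) did so less, and PYGB (-0.913) and GYG1 (-0.614) ran against GYS1.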

How the data were processed

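RNA-seq of 21 libraries was used. Per the labels and the study's methods, a Kapa kit with ribosomal RNA removal and paired sequencing were used. The authors' tools were Trim Galore, HISAT2 on hg19, htseq-count and edgeR; versions, annotation and strand setting are not given in the sources used here. The deposited value is a normalized signal, TMM-normalized CPM. In the knockdown and overexpression data, all values (100%) were whole reads within 0.05 read. In the mutant table, rows of reads assigned to no gene (40.9 to 43.0% of a column) were left out, and the other values were not rescaled. There 1 read was worth 0.0298 to 0.0319 CPM, against 0.0399 to 0.0503 CPM in the other tables. Levels of the mutant set are therefore not on the scale of the others. The authors' comparison tables (log2 fold change, mean log2 CPM, F statistic, p-value) were not used. Columns headed MAHAC were taken as RP11-390F4.3 by elimination.

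limma 3.58.1 (trend option) was fitted on log2(value + 1) to genes that reached 1 CPM in 2 or more libraries. A table's 6 libraries shared the spread. The fits were tried on simulated data with the same spread beyond counting error for every gene and library. Those data held no library that stood apart, as some did here. Alternatives were edgeR 4.0.16 and DESeq2 1.42.0 on whole reads, pseudocounts of 0.1 and 5, other filters, 2 groups only, no trend, median-centred libraries, a replicate block, adjusted p-values, 2-fold, and libraries left out. Fits of the other glycogen genes without single marked libraries were chosen after seeing the data. R 4.3.3 and Python 3.11.15 (numpy 2.4.6, pandas 2.3.3, matplotlib 3.10.9) were used. Lengths are unions of exons in GENCODE on GRCh37, and promoters are RefSeq's on GRCh38.p14.

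The members, the list of 25 other genes and the marker lists were chosen with earlier results of these data known. The text names every member, METTL4, other glycogen genes called alike in both lines, in opposite directions under hypoxia and METTL4-si, or in an overexpression comparison, and the 5 genes most like GYS1 and PYGL. A result that this rule would name is not reported here. Marker lists for endothelium (at most 13.8 CPM in sum), leukocytes, hepatocytes and skeletal muscle (none in the tables) showed no further library that stood apart.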

Additional observations from a re-analysis of the deposited data

Results flagged for a closer look

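A split here means that both libraries of a group lay on one side of the other group in FADU and on the opposite side in BFTC909. Among the other glycogen genes, 4 showed a split with hypoxia or with METTL4-si against Scr-si in hypoxia. The difference between the lines was not tested, and most of the single differences did not pass the criteria for a call. PGM2 had a log2 difference with hypoxia of 0.70 in FADU, which was called, and of -0.21 in BFTC909, which was not. G6PC3, a glucose 6-phosphatase subunit, was at -0.34 in FADU, not called, and at 0.45 in BFTC909, called. PHKB, the beta subunit of phosphorylase kinase, was at 0.20 and -0.11 with hypoxia, neither called. With METTL4-si PHKB was at -0.46 in FADU, called, and at 0.36 in BFTC909, not called. Without the marked library of each line it was at -0.37, not called, and at 0.48, called. EPM2A, the glycogen phosphatase laforin, was at -0.36 with METTL4-si in FADU, not called but at -0.54 and called without the marked library, and at 0.41 in BFTC909, called by unadjusted p with an adjusted p of 0.083 by limma. None of the 9 members showed such a split in these comparisons. With METTL4-si in hypoxia against Scr-si in normoxia GBE1 did, at log2 -0.33 in FADU, not called, and at 0.41 in BFTC909, called. With 2 or 1 libraries in a group, no group was large enough for a check of single outlying values.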

How the results depend on the processing

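Over 1195 fits of single members under alternatives, 1134 stayed on their side of the threshold, 51 lost a call and 10 gained one. No called value changed direction, but values not called in either fit could do so and count among the 1134. Of the lost calls, 28 came from a threshold of 2-fold. With 2-fold, members called fell to 4 with hypoxia in FADU (from 7) and 2 in BFTC909 (from 6), to 5 (from 8) and 2 (from 6) with METTL4-si in hypoxia, to 0 and 0 (from 4 and 4) with METTL4-si against normoxia, and to 1 (from 3) and 3 (from 7) with overexpression of METTL4 and RP11-390F4.3, which the stricter threshold itself brings about. FADU METTL4-si against normoxia rested on values near the threshold: it gave 2 members in place of 4 with a pseudocount of 5 and with adjusted p-values, and leaving out single libraries gave 2 to 4; without the libraries with other markers it left 1 library per group and was not tested. Clone 1 alone gave 3 mutant members past 1.3-fold in place of 1. Of 72 member results, 69 stayed on their side of the threshold with edgeR on whole reads and 70 with DESeq2. With median-centred libraries PYGB lost its calls with METTL4-si in FADU (log2 0.33) and with RP11-390F4.3 (log2 0.36). The shared replicate numbers were not treated as pairing: differences between replicates correlated at -0.065 to 0.154 between groups, except at 0.648 between FADU normoxia and METTL4-si, and the replicate block left all 72 member results on their side of the threshold, with 7, 8 and 4 members called in FADU and 6, 6 and 4 in BFTC909. The depth, 17.8 to 25.4 M reads on genes, limits the low values most, such as PPP1R3C in normoxic FADU cells.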
